A study of Mus musculus with 25 samples.

Results

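Haematopoietic stem cells (HSCs) of young mice and of mice kept 6 months longer without drug were compared by DNA methylation. The older group held 3 libraries from C57Bl/6 mice of 3.5 months plus 6 added months with 0 doses of 5-fluorouracil (5-FU), a drug that kills dividing cells. The young group held 2 libraries from untreated C57Bl/6 mice of 3.5 months. These 5 libraries were chosen by their labels out of 25, and all 5 were bone marrow HSCs without drug or transplantation. The study set out to follow methylation through ontogeny and after forced proliferation, and the 0-dose group was its undosed counterpart of the mice with 2 or 4 doses. The labels name no sex, no vehicle and no sorting gate. Nothing says that the replicates came from separate animals, so p-values measure the spread between these libraries, which may be technical.

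DNA methylation in mammals is laid down mainly on cytosines followed by guanine (CpGs). CpG-dense promoters are usually kept free of it, while sparse CpGs between genes are mostly methylated, and at imprinted genes only the copy from one parent carries the mark. In HSCs, the cells that renew themselves and supply all blood lineages, methylation is copied at each division, and it is known to shift at some regions with age. The assay was reduced representation bisulfite sequencing (RRBS), which reads methylation at CpG-rich restriction fragments. A level here is the percent of reads methylated, summed over the CpGs of a 1000-bp tile, and differences are in percentage points, 0-dose mean minus young mean.

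The young libraries were deeper, with 88351506 and 105187091 reads against 23392293 to 28509907 in the 0-dose libraries. The median depth of a CpG was 43 and 54 reads against 10 to 13. The reads were also spread differently along fragments. CpGs lying 40 to 49 bp after the first CpG of a cluster had 0.0455 to 0.0476 of the depth of that CpG in the 0-dose libraries, against 1.33 and 1.64 in the young ones. Only the fetal libraries were as low, at 0.0667 and 0.0934, and the other 18 libraries lay between 0.776 and 1.62. This difference between the libraries and the 6 added months cannot be told apart. The comparison used 851270 autosomal CpGs with 5 or more reads in all 5 libraries, which gave 80118 tiles with 3 or more CpGs.

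The clearest difference was a gain of methylation in the 0-dose group at a small share of tiles. Of 80118 tiles, 440 changed (0.549%), of which 388 gained (0.484%) and 52 lost (0.0649%). A changed tile had an adjusted p under 0.05 in a quasi-binomial model with Benjamini-Hochberg adjustment and a difference of at least 10 points. Gains were large, with a median of 39.1 points and 68 gains of 50 points or more. Losses had a median of -29.1 points, and 1 loss reached 50 points. Over all tiles the median difference was 0.0406 points, and 73.8% of tiles differed by less than 5 points. In all 440 changed tiles the 3 0-dose libraries lay on one side of both young ones. The call itself favours such tiles, so this is no separate evidence, here or at single genes below. Without any call, 16.9% of all tiles had every 0-dose library above both young ones and 12% had every one below.

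With 1 young library left the spread came from the 0-dose libraries alone, and 0 tiles passed the quasi-binomial test without young replicate 1 (2979 at an unadjusted p under 0.05) or without young replicate 2 (3801), although single differences stayed as large, such as 63.6 and 66.2 points at Amd2; 60 passed without 0-dose replicate 1 and 189 without 0-dose replicate 3. With an offset of each library removed, 73 tiles gained and 110 lost; the offset came from 14 CpG-dense tiles of intermediate level, which themselves read 41.7% in 0-dose and 33.2% in young HSCs, and it moved the median over all tiles to -1.90 points.

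Over all tiles the groups stood about as far apart as the 0-dose libraries did from each other. Levels of a tile differed by a median of 1.74 points between both young libraries and by 2.91 to 3.17 points between 0-dose libraries. Between the groups the median was 2.58 to 3.28 points.

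Tiles at transcription starts tie some of the change to named genes. RefSeq promoter sequences (GRCm38.p6, 250 bases before to 50 after a transcription start) were placed on the positions of the files by matching the spacing of their CpGs, which succeeded for 9302 of 25748 autosomal genes. A placed start lay in 7847 of the tiles tested. With summed reads 13 of these tiles were called as gains, at Hoxa5, Ubb, Amd2, Gnas, Racgap1, Lhcgr, 5730596B20Rik, Gm39337, Niban1, 1600014C23Rik, Thrap3, Sf1 and Rbms1, and 1 as a loss, at Gm32709. The call at Sf1 was not a gain at its CpGs: 0 of 18 were over 10 points higher in the 0-dose mean. At Thrap3 2 of 21 CpGs were. The 13 calls of gain were 0.166% of the start tiles, against 0.484% of all tiles. The start tiles as a whole were nearly unmethylated, at 4.77% to 5.38% in the 5 libraries. The change reached into the placed promoter sequences of more genes than are printed. From young to 0-dose the level there rose at Thrap3 (22.7% to 65.1%, 4 of 31 CpGs read), Rbms1 (5.48% to 56.2%, 2 of 26), Lhcgr (4.09% to 27.6%, 4 of 14) and Gm39337 (32.1% to 58.4%, 3 of 7). Few CpGs held most 0-dose reads at the first 2 genes. At Rbms1 the CpG at -45 bp had 112 to 229 reads per 0-dose library, and that at -68 bp had 6 to 13. At Thrap3 the CpG at -35 bp read 2.94% to 11.1% in 0-dose HSCs, between deep CpGs at -31 and -43 bp that read 63.2% to 70%. The promoters of 5 other genes that the change reached into, chosen after their values were seen, are shown from 5′ to 3′ on the strand of the gene. The CpGs read in all 5 libraries are in capitals.
Hoxa5: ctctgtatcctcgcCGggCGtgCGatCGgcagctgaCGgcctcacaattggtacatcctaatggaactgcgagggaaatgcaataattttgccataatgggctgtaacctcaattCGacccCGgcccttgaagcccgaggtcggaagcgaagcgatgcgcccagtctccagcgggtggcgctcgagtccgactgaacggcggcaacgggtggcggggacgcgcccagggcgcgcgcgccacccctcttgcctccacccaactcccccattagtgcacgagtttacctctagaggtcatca
Ubb: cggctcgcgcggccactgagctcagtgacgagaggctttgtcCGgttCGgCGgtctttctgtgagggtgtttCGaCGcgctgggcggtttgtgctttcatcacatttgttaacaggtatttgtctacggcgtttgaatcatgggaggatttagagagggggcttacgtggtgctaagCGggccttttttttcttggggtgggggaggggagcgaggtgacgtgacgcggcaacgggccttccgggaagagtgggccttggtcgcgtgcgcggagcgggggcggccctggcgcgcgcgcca
Amd2: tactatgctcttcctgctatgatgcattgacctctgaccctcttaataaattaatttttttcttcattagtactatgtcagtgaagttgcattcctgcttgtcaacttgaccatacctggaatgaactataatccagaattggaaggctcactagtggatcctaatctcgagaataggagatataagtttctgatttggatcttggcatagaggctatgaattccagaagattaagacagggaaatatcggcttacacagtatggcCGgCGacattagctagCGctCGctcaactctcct
Gnas: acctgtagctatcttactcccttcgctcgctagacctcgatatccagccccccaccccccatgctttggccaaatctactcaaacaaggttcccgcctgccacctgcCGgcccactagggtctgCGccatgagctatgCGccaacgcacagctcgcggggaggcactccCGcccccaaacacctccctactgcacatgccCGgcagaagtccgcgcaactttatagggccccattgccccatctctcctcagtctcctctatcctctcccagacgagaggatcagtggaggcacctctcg
Racgap1: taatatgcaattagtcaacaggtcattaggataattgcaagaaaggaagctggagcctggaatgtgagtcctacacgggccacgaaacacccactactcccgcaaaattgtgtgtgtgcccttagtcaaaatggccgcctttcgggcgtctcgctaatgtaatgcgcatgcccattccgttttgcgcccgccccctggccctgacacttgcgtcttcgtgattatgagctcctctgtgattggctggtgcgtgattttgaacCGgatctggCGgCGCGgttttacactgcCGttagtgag
On mm9 these windows correspond to chr6:52154537-52154836 (minus strand) for Hoxa5, chr11:62364983-62365282 (plus) for Ubb, chr10:35431648-35431947 (minus) for Amd2, chr2:174109571-174109870 (plus) for Gnas and chr15:99482038-99482337 (minus) for Racgap1. RRBS read few of the CpGs in each, 7 of 29 at Hoxa5, 6 of 32 at Ubb, 4 of 6 at Amd2, 5 of 16 at Gnas and 5 of 19 at Racgap1.

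Hoxa5, a homeobox transcription factor of the Hoxa cluster, gained methylation in both tiles measured around its start. The tile chr6:52154001-52155000, with 42 CpGs, read 17.1% and 23.2% in the young libraries and 47.5%, 52.8% and 46.4% in the 0-dose libraries. Its neighbour chr6:52153001-52154000, with 12 CpGs, read 25.7% and 29.3% against 55.7%, 59.2% and 60.3%. Every 0-dose library stood above both young ones in both tiles. The differences were 28.7 points (20.2% ± 4.33, SD, n = 2, to 48.9% ± 3.47, n = 3; adjusted p = 0.0280, quasi-binomial model) and 30.9 points (adjusted p = 0.0312). The call of the first tile was lost with limma (adjusted p = 0.0812), in a fit of 10 libraries (0.0906), with the offset removed (20.1 points, 0.182), with every CpG weighing the same (0.0653) and without 0-dose replicate 1 (0.0770). The change ran over most of the CpGs measured in both tiles. Of the 54 CpGs, 45 were over 10 points higher in the 0-dose mean and 34 had every 0-dose library above both young ones. The same reads chose the tiles, and neighbouring CpGs can lie on the same reads. Such counts, here and at the genes below, describe where the difference lay and do not test it. Within the promoter printed above, the 7 CpGs rose together from 37.4% ± 6.76 to 75.7% ± 7.65.

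**Figure D1:**
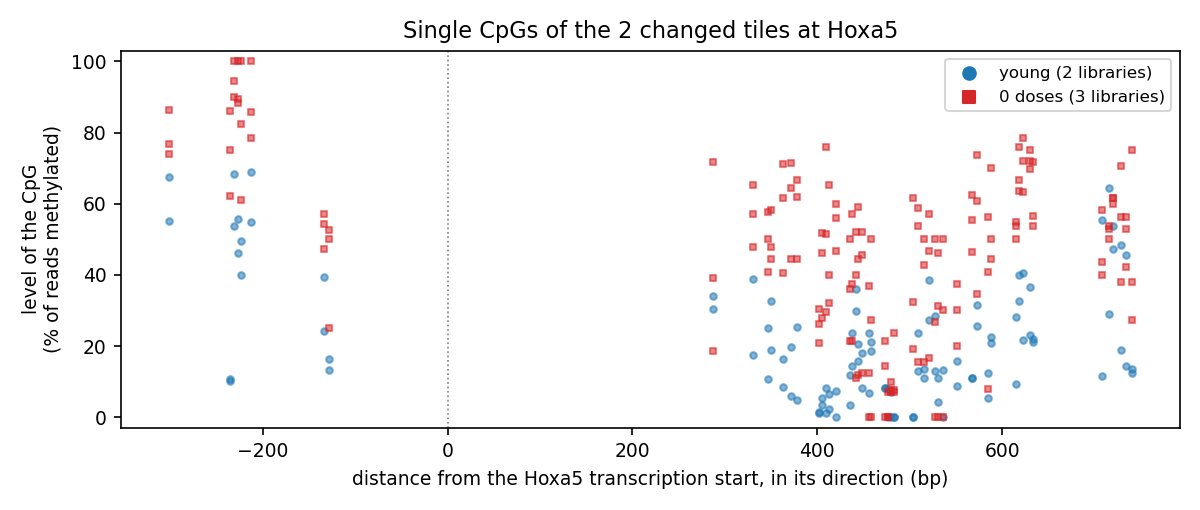
Level of each of the 54 CpGs of both changed tiles at Hoxa5 (y axis, percent of reads methylated) against its distance from the transcription start in the direction of the gene (x axis, bp), with 1 point per library: blue circles are the 2 young and red squares the 3 0-dose libraries, and the dotted line is the start. The red squares lie above the blue circles at most CpGs on both sides of the start, with overlap in a stretch past 400 bp.

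Other groups, given only beside these values, were mixed at Hoxa5. The 42-CpG tile read 5.53% and 6.16% in fetal HSCs, 27.5% and 26.3% in old HSCs of 25 months, 29.4%, 38.8% and 46.6% with 2 doses of 5-FU, and 28.4% and 49.5% with 4 doses. The 0-dose level was thus above that of both old libraries, and 1 library of each dosed group reached it. A further changed tile on that chromosome held the start of 5730596B20Rik, at chr6:52127001-52128000. It rose from 45.0% and 25.4% to 69.7%, 72.1% and 77.6%, by 38.0 points (adjusted p = 0.0262), a call lost in 8 of 18 alternatives.

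Ubb, which encodes a polyubiquitin precursor, also gained in adjoining tiles. In chr11:62365001-62366000 the young libraries read 8.29% and 7.94% and the 0-dose libraries 47.0%, 40.5% and 36.7%. In chr11:62366001-62367000 they read 5.23% and 4.93% against 32.9%, 39.7% and 31.6%. Young libraries were close to unmethylated and did not overlap the 0-dose ones in either tile. The gains were 33.2 and 29.6 points (adjusted p = 0.0138 and 0.0165). The first call was lost with the offset removed (0.0573) and without 0-dose replicate 1 (0.0603). All other untransplanted libraries, which the comparison did not use, were also high in the first of these tiles. They read 42.1% and 47.6% in fetal, 38.8% and 27.6% in old, 33.3% to 51.9% with 2 doses and 49.5% and 63.3% with 4 doses.

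Amd2, a copy of the gene for S-adenosylmethionine decarboxylase of polyamine synthesis, had the largest gain at a start. The tile chr10:35431001-35432000 read 5.35% and 7.91% in the young and 62.8%, 81.2% and 70.7% in the 0-dose libraries, over 92 to 318 reads. The difference was 64.9 points (adjusted p = 0.00210), and the call held in 15 of 18 alternatives. The 4 CpGs of the printed promoter stood at 11.6% ± 4.32 in young and 96.1% ± 6.74 in 0-dose HSCs. All 8 CpGs of the tile had every 0-dose library above both young ones. Amd2 closely resembles Amd1 in sequence, and how reads shared between such copies were assigned is not given in the sources used here. Old, fetal and dosed libraries read 35.2% to 66.7% there, so the young libraries were the lowest of the untransplanted ones.

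Gnas, an imprinted locus that encodes the stimulatory G protein alpha subunit and other products, gained at its upstream start. In chr2:174109001-174110000, 5 CpGs read 5.19% and 7.48% in young and 48.9%, 27.3% and 62.5% in 0-dose HSCs. The 0-dose libraries scattered widely but none reached down to the young ones. The difference was 39.9 points (6.34% ± 1.61 to 46.2% ± 17.8, adjusted p = 0.0389), over as few as 45 reads. The call was lost in 9 of 17 alternatives, among them at least 10 reads per CpG (0.0761), limma (0.0671), the offset removed (0.134), equal weights (0.0627) and leaving out 0-dose replicate 1 (0.133) or replicate 3 (0.101). All other tiles at Gnas missed the threshold: the tile that starts at 174154001 read 7.29% ± 4.18 in young and 28.6% ± 10.6 in 0-dose HSCs (adjusted p = 0.0738), and that at 174110001 read 23.2% ± 4.78 and 35.4% ± 2.37 (adjusted p = 0.411).

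Racgap1, which encodes a GTPase-activating protein needed for cell division, differed in another way. Its tile chr15:99482001-99483000 read 0.231% and 0% in young and 19.9%, 42.2% and 14.7% in 0-dose HSCs, a gain of 25.5 points (adjusted p = 0.0295) whose call was lost in 7 of 18 alternatives. The gain sat on 2 of its 7 CpGs. The CpG 41 bp past the start went from 0.847% to 73.9% and the CpG at 27 bp from 0% to 29.5%. At the CpGs 13, 22, 25 and 86 bp past the start every one of the 5 libraries read 0%. Fetal, old and dosed libraries read 0% to 3.14% in the tile, so that only the 0-dose libraries were high among those without transplantation.

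Lhcgr, the receptor for luteinizing hormone, rose from 24.1% and 15.6% to 46.1%, 53.8% and 39.7% (adjusted p = 0.0444), with 11 of 11 CpGs over 10 points higher, but the call was lost in 11 of 18 alternatives. The only start tile that lost was at the predicted gene Gm32709, chr8:11279001-11280000. Young libraries read 78.8% and 81.6% there and 0-dose libraries 45.8%, 45.1% and 34.5%, a difference of -38.5 points (adjusted p = 0.0168), lost as a call in 6 of 18 alternatives. All 8 of its CpGs were lower in every 0-dose library. Old libraries read 90.5% and 91.3%, fetal ones 17.2% and 13.97%, and the dosed ones 34.7% to 52.9%.

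Not every start tile called as a gain was higher in the promoter window. In that window Sf1 read 0% in all 5 libraries, 1600014C23Rik 0.904% ± 0.650 in young and 0% in 0-dose HSCs, and Niban1 1.42% ± 0.651 and 3.95% ± 4.00. The window of 5730596B20Rik read 50.1% ± 18.03 and 59.9% ± 36.3, with wide overlap.

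At some start tiles the call rested on a few CpGs that held many of the reads. At Thrap3, a nuclear protein of transcription and splicing, the level went from 5.88% to 48.9%, yet with every CpG weighted the same it went from 4.77% to 7.35%. At Sf1, a splicing factor, the tile was 25.3 points higher with summed reads and differed by -2.05 points with equal weights. Its CpG 279 bp past the start read 91.2% in young and 91.4% in 0-dose HSCs. A single CpG held 35.6% of the 0-dose reads of that tile, against at most 11.5% in young HSCs. Rbms1, an RNA-binding protein, had 15.7 points with summed reads and 6.24 points with equal weights. In the Thrap3 tile a single CpG held 43.8% of the 0-dose reads, while the largest share of any CpG in young HSCs was 10.7%. The gains at Hoxa5, Ubb, Amd2 and Gnas were of 25.5, 33.0, 69.1 and 39.5 points with equal weights, and that at Racgap1 was of 15.0 points, but of these the Hoxa5, Gnas and Racgap1 calls were lost (adjusted p = 0.0653, 0.0627 and 0.0579). At Niban1, 1600014C23Rik and Gm39337 it was 10.7, 10.6 and 10.1 points.

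Over all changed tiles, 356 of 388 gains (91.8%) and 47 of 52 losses (90.4%) were of 10 points or more in the same direction when every CpG weighed the same. The median gain was then 34.4 points and the median loss -23.7 points. A fit of those levels called 204 tiles, of which 197 gained and 7 lost. Where both DNA strands had CpGs, 247 of 267 gains and 42 of 46 losses had one sign on both. The same reads chose these tiles, so the counts by equal weights and by strand describe them and do not test the change. Over all 80118 tiles, 70071 kept their sign with equal weights. Unequal depth went with the gains: 2.39% of tiles with over 3 times the relative depth in the 0-dose group gained, against 0.321% of tiles whose relative depth lay within 3 times of even. Without the tiles of unequal depth 275 changed, of which 229 gained.

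**Figure D2:**
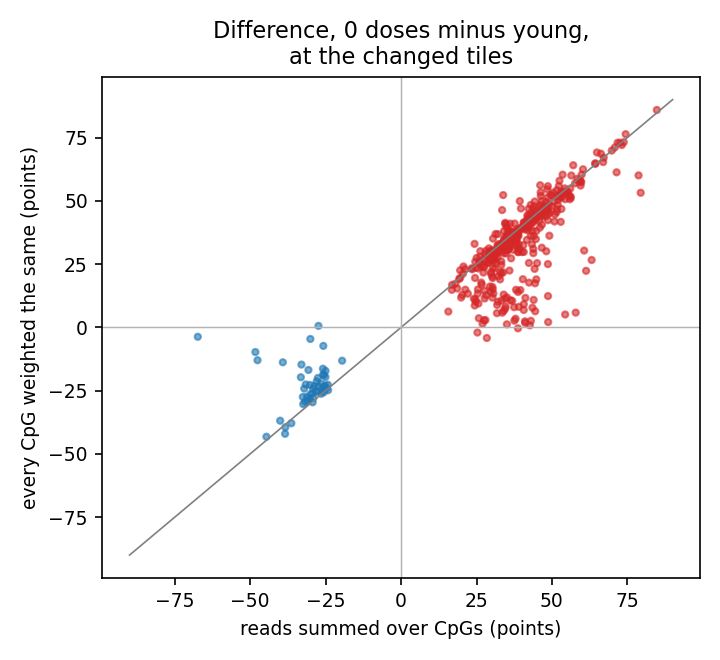
Difference of each of the 440 changed tiles, 0 doses minus young, with reads summed over CpGs (x axis, points) and with every CpG weighted the same (y axis, points); red marks gains, blue marks losses, and the diagonal marks equality. Most tiles lie near the diagonal, and a smaller number of both directions falls toward 0 on the y axis.

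The 10 largest gains and 10 largest losses mostly lay away from placed starts. They were taken among changed tiles with at least 5 CpGs, 30 reads in every library and no overlap between the groups. The largest gain, at chr15:49801001-49802000, read 8.94% and 11.3% in young and 89.0%, 89.4% and 90.2% in 0-dose HSCs. Depth was very unequal there, with 8314 and 7974 reads in young and 82 to 109 in 0-dose libraries, and the gain of 79.4 points was 53.2 points with equal weights. The tile chr17:64051001-64052000 rose from 18.97% and 17.99% to 93.8%, 99.2% and 98.6% (adjusted p = 0.000393) at more even depth, 129 to 253 reads. Old and fetal libraries were high there too, at 79.1% to 94.98%, while dosed libraries read 36.1% to 60.8%.

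In the tile chr18:64609001-64610000 the young libraries were almost unmethylated, at 0.905% and 0.602%, and the 0-dose libraries read 43.5%, 61.3% and 66.7% (adjusted p = 0.00360). At chr6:92515001-92516000 the levels were 11.6% and 28.7% against 87.8%, 97.0% and 97.1%. At chr13:100191001-100192000 they were 9.64% and 16.2% against 78.8%, 86.0% and 54.9%. With equal weights the gains at these tiles were 60.03, 73.2 and 62.5 points. By contrast the tile chr9:67896001-67897000, which rose by 57.9 points with summed reads, had a difference of 5.83 points with equal weights, and 3103 and 3650 reads in young against 128 to 196 in 0-dose libraries.

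The largest loss was of the same kind. At chr4:127033001-127034000 the level fell from 92.1% and 88.7% to 29.1%, 20.9% and 19.1%, but the difference of -67.4 points was -3.73 points with equal weights. The next loss, at chr10:8269001-8270000, went from 86.1% and 90.2% to 26.4%, 65.1% and 39.1%, by -44.6 points with summed reads and -43.2 points with equal weights, a call lost in 8 of 18 alternatives. Old libraries read 88.4% and 86.3% at the chromosome 10 tile, like the young ones, while fetal libraries read 53.3% and 57.0%.

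**Figure D3:**
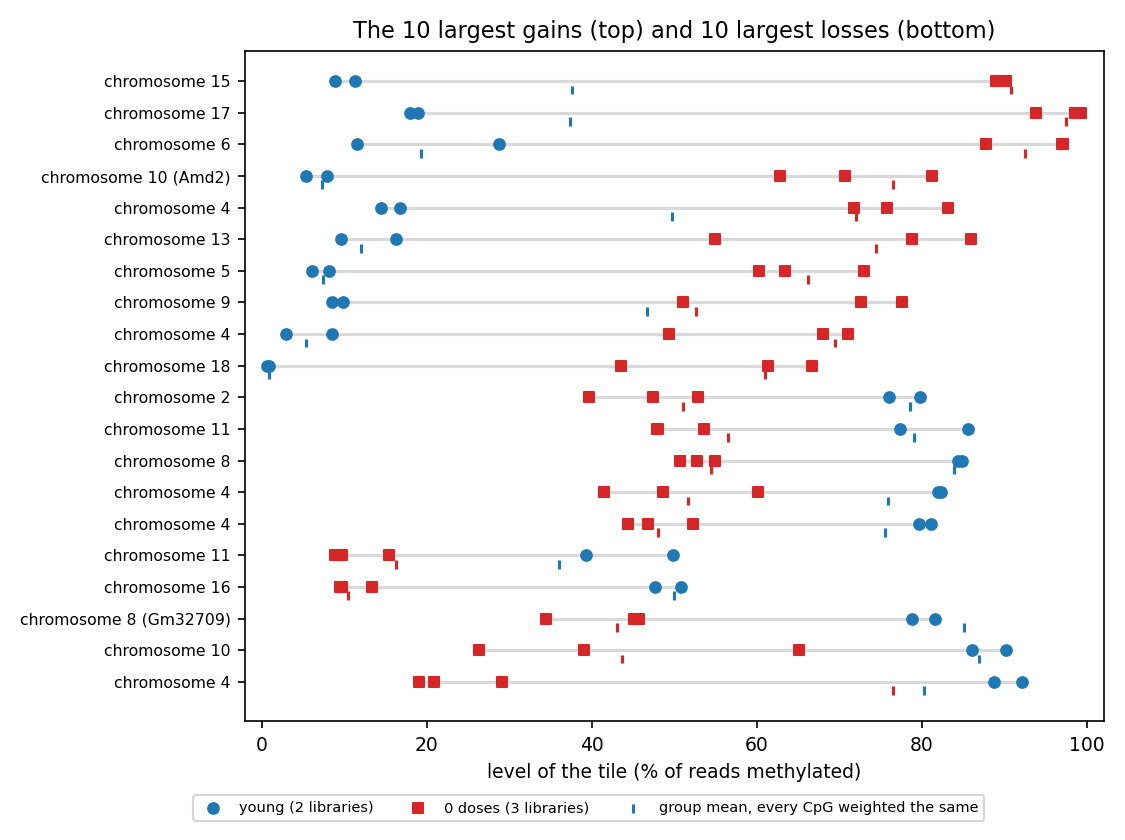
Level of each library (x axis, percent of reads methylated) at the 10 largest gains and 10 largest losses, 1 tile per row named by chromosome; blue circles are the 2 young and red squares the 3 0-dose libraries, and the ticks under them are the group means with every CpG weighted the same. Circles and squares are separate in every row because the choice of tiles required it. The ticks of both groups come close together in the rows for chromosome 9 and for the lowest chromosome 4 tile.

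Set beside the other groups, gained and lost tiles looked different. At the gained tiles the median level was 25.8% and 27.8% in the young libraries and 72.8% to 74.5% in the 0-dose libraries. Libraries outside the comparison lay nearer the 0-dose group, with 61.3% and 58.1% in fetal, 66.1% and 60.5% in old, 66.1% to 68.1% with 2 doses and 66.7% and 70.8% with 4 doses. Transplanted libraries were lower and spread from 21.4% to 57.1%. The group mean was nearer the 0-dose mean than the young mean at 323 of 373 gained tiles with 2 doses (86.6%), 222 of 280 with 4 doses (79.3%), 282 of 384 in fetal (73.4%) and 274 of 379 in old HSCs (72.3%). At the lost tiles old HSCs were close to young ones, with medians of 87.2% and 87.2% against 84.6% and 84.7%, and 4 of 51 tiles (7.84%) were nearer the 0-dose mean. Fetal libraries had 54.8% and 60.2% there, 0-dose libraries 46.7%, 58.1% and 50.7%. The young and 0-dose levels chose these tiles, and all such comparisons share them, so the shares are descriptions and were not tested.

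**Figure D4:**
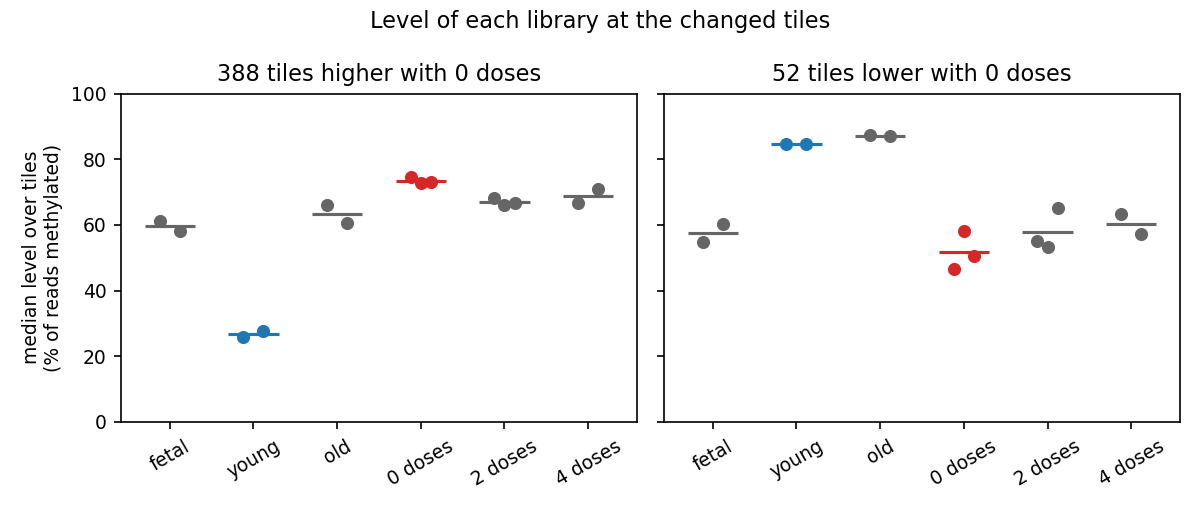
Median level per library (y axis, percent of reads methylated) over the 388 tiles higher with 0 doses (left) and the 52 lower with 0 doses (right), by group on the x axis; each point is 1 library and each line the mean of a group. Transplanted libraries are not drawn. Among the groups drawn, the 2 young libraries are lowest on the left, and on the right both young and both old libraries are highest; young and 0-dose levels chose the tiles.

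Gains were most frequent at tiles of intermediate level in fetal HSCs, which the comparison did not use. Of 11828 tiles between 20% and 80% in fetal libraries, 274 gained (2.32%) and 36 lost, and their median difference was 3.18 points. Among 24799 tiles under 20%, 33 gained (0.133%), and among 43103 tiles at 80% or more, 77 gained (0.179%). By CpG number, 345 of 60152 tiles with under 10 CpGs gained (0.574%), 40 of 15773 with 10 to 29 (0.254%) and 3 of 4193 with 30 or more (0.0715%). By distance, 18 gained tiles ended within 1 kb of a placed start (0.370% of such tiles), 30 at 1 to 5 kb (0.851%) and 319 farther away (0.520%). No 3 changed tiles of one direction followed each other within 2 kb, and the 10 pairs included those at Hoxa5 and Ubb.

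Of the genes with a changed tile within 5 kb of their start, 6 are described here and were chosen after their values were seen. A tile 2.54 kb downstream of the start of Runx3, a transcription factor of lymphoid and myeloid cells, rose from 26.3% ± 2.32 to 56.4% ± 9.18 (adjusted p = 0.0378). One 4.37 kb downstream of the start of Hlx, a homeobox gene, rose from 51.2% ± 2.24 to 84.5% ± 2.94 (adjusted p = 0.0163). One 0.453 kb downstream at Bcl2l1, an inhibitor of apoptosis, rose from 49.3% ± 3.50 to 88.3% ± 4.25 (adjusted p = 0.0221). A tile upstream of Gp1bb, part of the platelet receptor for von Willebrand factor, rose from 21.7% ± 0.306 to 52.7% ± 2.35, and 1 upstream of the Notch ligand Jag2 from 28.4% ± 2.03 to 62.2% ± 4.44. Nnat, an imprinted gene, had a gain from 17.6% ± 1.63 to 60.0% ± 12.7 at 1.19 kb from its start, while both tiles at the start did not pass and went opposite ways (41.3% to 31.5%, adjusted p = 0.840, and 29.5% to 37.1%, adjusted p = 0.996). With equal weights these 6 gains were between 21.8 and 39.98 points.

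No start tile of the listed genes of HSCs and their progeny passed the same test. Calls were rare everywhere, with 0.549% of all tiles changed and 0.166% of start tiles gained. Over so few tiles an absence of calls does not set these lists apart. None of 20 tiles within 1 kb of the starts of stem cell transcription factors (9 of 18 listed genes measured) passed, and their differences ran from -3.19 to 0.875 points with a median of -0.273. At Runx1, needed for the emergence of HSCs, the 33-CpG tile read 2.87% ± 0.382 in young and 1.499% ± 0.745 in 0-dose HSCs. At Gata2, needed for HSC maintenance, the 13-CpG tile read 1.38% ± 0.00541 and 0.957% ± 0.547. None of 13 tiles at DNA methylation writers and erasers (8 of 9 genes) passed, with differences between -0.514 and 1.71 points and a median of 0.120. The 43-CpG tile of the methyltransferase Dnmt3a read 0.996% ± 0.0491 and 1.54% ± 0.300, and that of the demethylase Tet2, which starts the removal of methylation, differed by 0.120 points. Nearly all of these starts were close to 0: the tiles of both lists read at most 6.30% in every library except 1 at Runx1. That tile, starting at 92696001, read 86.5% and 89.01% in young and 94.2%, 83.5% and 76.7% in 0-dose HSCs.

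Lineage and cell cycle lists were alike in this. No tile passed of 15 at cell cycle genes (7 of 11 measured), 5 at myeloid (2 of 9), 11 at lymphoid (5 of 13) and 4 at erythroid and platelet genes (2 of 10). Their median differences were -0.129, 0.0524, 0.0672 and 0.544 points. Among these the widest difference was at Ebf1, a B cell transcription factor, with 72.5% ± 2.32 in young and 61.2% ± 3.95 in 0-dose HSCs (adjusted p = 0.595). By the quasi-binomial test 0 tiles of these lists, and of those for stem cell factors and methylation enzymes, had an unadjusted p under 0.05. The share over all tiles tested was 9.34%, but those include many intermediate and methylated tiles. The median young level of each list lay between 0.996% and 3.28%, and the share among tiles of like level was not computed. Of the genes that mark HSCs or other cells, 3 of 15 were measured, and the starts of Gata2 and Tal1 read at most 6.30% in any of the 5 libraries. Of genes of stroma, endothelium and liver 2 of 9 were measured, in 2 tiles that did not pass: Lepr, the leptin receptor, read 2.32% ± 0.416 and 6.67% ± 4.04, and Col1a2, a collagen chain, 2.60% ± 0.946 and 0% in all 3 0-dose libraries. Methylation at a start cannot by itself show which cells a library held, and the makeup of the libraries was not tested.

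Imprinted genes were the only list with a call: 1 of 16 tiles passed, at Gnas, with 8 of 21 genes measured. The median difference of the 16 tiles was 7.76 points, against 0.0406 points over all tiles. Their median young level was 30.3%, and tiles of intermediate level were higher too. The median difference was 3.18 points over tiles between 20% and 80% in fetal libraries, and 8.15 points over the 24 of those with 30 or more CpGs. Of the 16 tiles, 6 had an unadjusted p under 0.05 by the quasi-binomial test, against 9.34% of all tiles. The share among tiles of like level was not computed, and more than 1 of the 6 lay at Gnas, so no excess at imprinted genes can be read from this. Apart from the called Gnas tile, the 16 tiles missed the threshold after adjustment over all tiles. Besides the Gnas tiles above, those with an unadjusted p under 0.05 were at Zrsr1, Plagl1 and Mcts2, the last at 87.1% ± 4.07 in young and 94.96% ± 1.58 in 0-dose HSCs (adjusted p = 0.370). At Zrsr1, an imprinted splicing factor gene, the 22-CpG tile read 33.3% and 29.02% in young and 43.5%, 51.4% and 38.0% in 0-dose HSCs (adjusted p = 0.397). At Igf2r, the receptor that clears insulin-like growth factor 2, the levels were 22.4% and 27.96% against 29.3%, 46.4% and 28.4% (adjusted p = 0.613). Plagl1, an imprinted zinc finger gene, pointed the other way with 39.7% and 37.9% against 28.5%, 26.2% and 29.7% (adjusted p = 0.514). The list therefore did not move in a single direction.

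Mean levels over sets of tiles defined in other libraries asked whether the 0-dose group had moved along the path of ageing. With 3 against 2 libraries the exact two-sided permutation test cannot go below p = 0.2, so none of the 18 sets could pass. Over 2065 tiles that rose from fetal to old HSCs, the young libraries averaged 57.4% and 60.0% and the 0-dose libraries 65.2%, 63.0% and 62.9%, below the 73.4% and 71.3% of old libraries (exact p = 0.2, adjusted 0.3). Over 814 tiles that fell from fetal to old, the 0-dose libraries were also higher, at 38.2% to 38.7% against 30.6% and 32.02%, whereas old libraries read 28.5% and 26.7%. The 0-dose group was thus higher in both sets, toward old HSCs in one and away from them in the other. The differences were 4.98 points at tiles that rose and 7.09 points at tiles that fell. Over all 11464 tiles between 20% and 80% in fetal libraries the difference was 4.63 points, so the set that rose stood close to intermediate tiles in general.

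Among all 18 sets the widest difference was 11.2 points, over 222 tiles that rose from old to 10 old cells transplanted. Young HSCs had 31.7% ± 0.430 and 0-dose HSCs 42.9% ± 2.17 there (exact permutation p = 0.2). Among sets defined by fetal level, the widest difference was at CpG-dense tiles that fetal HSCs methylate. Over 93 tiles with 30 or more CpGs and at least 80% in fetal libraries, young HSCs had 80.5% ± 0.340 and 0-dose HSCs 90.5% ± 1.08, a difference of 9.97 points (exact p = 0.2). The 14 CpG-dense tiles of intermediate level were higher by 8.495 points as well, and relative to them the difference was 1.48 points. Over the 38 of these measured in all 25 libraries, both young libraries were the lowest of the 25, at 77.1% and 77.2%. The 0-dose libraries had 89.5% to 91.4%, fetal 91.9% and 92.1%, 2-dose 89.0% to 90.7%, 4-dose 91.3% and 91.9%, old 81.5% and 83.3%, and transplanted ones 82.6% to 89.6%. The 2-dose and 4-dose libraries had 0.818 to 1.24 of the depth of the first CpG at 40 to 49 bp. Of the 93 tiles, 1 passed the test of single tiles.

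**Figure D5:**
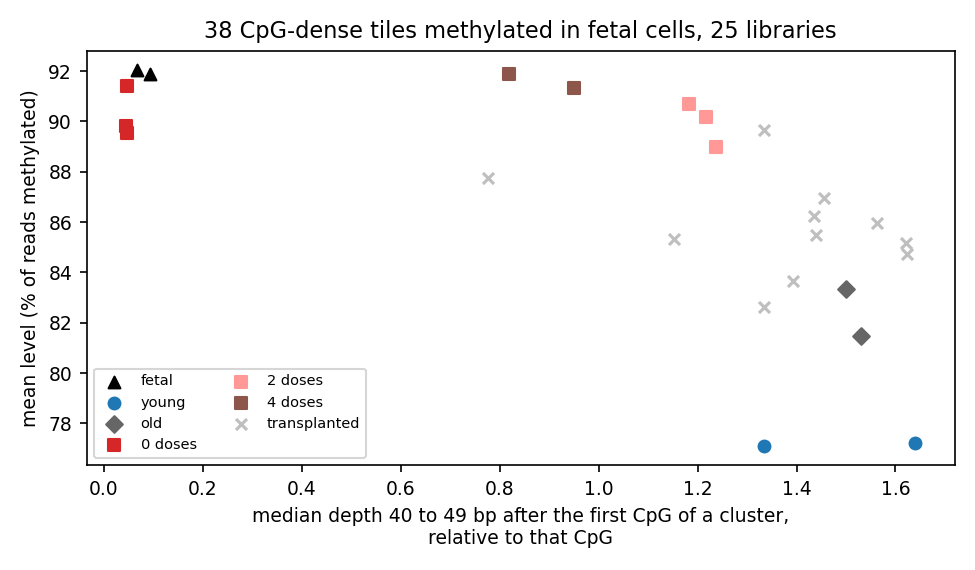
Mean level of each of the 25 libraries over 38 CpG-dense tiles methylated in fetal HSCs (y axis, percent of reads methylated, starting above 0) against the depth 40 to 49 bp after the first CpG of a cluster relative to that CpG (x axis); colours and shapes are groups. The 2 young libraries are at the bottom with 77.1% and 77.2%, and the 3 0-dose libraries are at the upper left beside the 2 fetal ones.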

How the data were processed

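RRBS libraries were prepared by a protocol adapted to few cells, per the labels' protocols. The deposited files give, for every CpG, methylated and total read counts, and a score that the authors made from their ratio. Positions are on build mm9 (per the submitters' processing notes). Which aligner, caller and duplicate filter the authors used is not given in the sources used here. Only the deposited read counts entered the tests. Tiles were fitted with a quasi-binomial model of 5 libraries with Williams weights (correlation 0.0115 within a library). The dispersion was moderated with a trend on depth (residual df 3, prior df 8.30) and held at 1 or more, and F tests were adjusted by Benjamini-Hochberg over 80118 tiles. Named tiles were the 10 largest gains and 10 largest losses with at least 5 CpGs, 30 reads per library and no overlap between the groups. Changed tiles at placed starts were described as a class. Reads carry no molecular identifiers, so they are not independent molecules. The tiles, gene lists and comparisons were chosen with earlier results of these data known. Tools were Python 3.11.15, numpy 2.4.6, scipy 1.17.1, pandas 2.3.3, matplotlib 3.10.9, R 4.3.3 and limma 3.58.1.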

Additional observations from a re-analysis of the deposited data

How the results depend on the processing

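The count of 440 changed tiles was 332 with at least 10 reads per CpG, 453 without CpGs over 500 reads and 430 at a difference of 20 points. It was 105 with 300-bp tiles, 1092 with at least 5 CpGs per tile, 217 with limma, 53 in a fit of 10 libraries with the dosed groups and 275 without tiles of unequal depth. With the library offset removed it was 183, of which 39.9% gained. With the dispersion of each tile alone it was 0, with 2326 tiles at an unadjusted p under 0.05. Among settings chosen after seeing the data it was 1347 with the correlation within a library taken from all tiles, 204 with every CpG weighing the same and 763 with equal weights and at least 5 CpGs. Leaving out 1 library gave between 0 and 546 changed tiles: 0 without either young library, 60 without 0-dose replicate 1, 546 without replicate 2 and 189 without replicate 3. A replicate block gave 537 changed tiles, of which 378 were among the 440. The 2 shared numbers gave correlations of deviations of -0.0566 and -0.0463. With 2 young libraries the deviations mirror each other, so these values can neither show nor exclude a pairing.

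Single tiles changed sign in 3 places. Thrap3 had -0.496 points without CpGs over 500 reads and -3.16 on the minus strand. Sf1 had -0.240 in the fit of 10 libraries, -2.05 with equal weights, with or without the minimum of 5 CpGs, and -0.813 and -0.303 on the plus and minus strand. Rbms1 had -0.578 on the minus strand.

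At tiles of 80% or more in fetal libraries the difference was 0.165 points, with overlap (young 87.95% and 90.04%, 0-dose 90.9%, 87.8% and 88.8%). Its sign turned without young replicate 1 and without 0-dose replicate 1. Otherwise the differences of mean levels kept their sign except where given. For these the offset was the mean level at the 14 CpG-dense intermediate tiles, so 8.495 points were taken off every difference alike; this exceeds the young mean of 3.06% at tiles under 20%, and a change of sign here follows from that subtraction and shows nothing about a set. The differences were then -7.53 over all tiles, -7.87 under 20% in fetal, -3.86 between 20% and 80%, -8.33 at 80% or more, 1.48 at CpG-dense methylated tiles, -3.51 and -1.41 at tiles that rose and fell from fetal to old, and 2.69 and -5.23 at tiles that rose and fell from old to 10 transplanted old cells. Weighted by reads they were 2.84 over all tiles, -0.0472 under 20%, 0.984 at tiles that fell from fetal to old, 0.884 at tiles that rose after 10 old cells and 13.8 at CpG-dense intermediate tiles. At CpG-dense methylated tiles the value was 13.2 with at least 10 reads and 11.3 with equal weights, and at tiles that fell from fetal to old 5.90 and 5.37. Leaving out 1 library gave 3.65 to 6.31 for tiles that rose from fetal to old and 6.37 to 7.80 for those that fell. Beyond that subtraction the cause was not tested. Precision is lowest in the 0-dose libraries, where the median CpG had 10 to 13 reads.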
